A study of Danio rerio with 6 samples.

Results

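The set described here holds 8 zebrafish genes. They are the genes of prostaglandin synthesis and turnover whose probe sets carry 1 symbol beginning with ptgds, ptgs, ptges, ptger or ptgr in the probe annotation: 8 of the 10802 probe sets with a single symbol, 1 probe set per gene. The genes are *ptgdsb.1*, *ptgdsb.2*, *ptgs1*, *ptgs2a*, *ptgesl*, *ptges3a*, *ptges3b* and *ptgr1.1*. The set was drawn up with the difference between RA and DMSO arrays in view, *ptgdsb.1* being the gene set against the others, so the values of these 8 genes under that contrast are a description and carry no test. A current RefSeq gene table (GRCz12tu) lists 23 genes under the same symbols. The other 15 were not analysed here, and they include all 9 prostaglandin E receptor genes (*ptger*), so no receptor gene is among the 8.

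The question was which genes of the developing eye respond to exogenous retinoic acid (RA), a vitamin A derivative that acts through nuclear receptors. Wild-type embryos of the outbred SciH line were kept from 48 to 75 hours post-fertilization (hpf) in 0.3 µM all-trans RA with 0.1% DMSO, or in 0.1% DMSO alone, while retinal layers and photoreceptors form. The 64 eyes of each treatment group were pooled, and each RNA pool was hybridized to 1 Affymetrix Zebrafish Genome Array, giving 3 RA arrays and 3 DMSO arrays from 3 clutches (numbered 1, 3 and 4) that were each split between the treatments. Values are linear signal intensities, and log2 fold changes are RA minus DMSO from limma over 15555 probe sets. A signal of 13.2, the maximum that any of 87 controls lacking a zebrafish target reached, served as background. With 3 arrays a group the precision is limited, and a log2 fold change had a median standard error (SE) of 0.25.

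Prostaglandins are short-lived lipid signals made from arachidonic acid. Phospholipases free the fatty acid from membranes, cyclooxygenases (the *ptgs* genes) turn it into the common precursor prostaglandin H2, and terminal synthases make the D, E, F and I forms and thromboxane from that precursor. The *ptgds* genes encode lipocalin-type prostaglandin D synthases. In mammals this protein is both an enzyme and a secreted carrier of small lipophilic molecules, retinoids among them, and it is known from the pigment epithelium of the eye and from the fluids of eye and brain.

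Of the 8 genes, 1 was lower in RA-treated eyes past a false discovery rate (FDR) of 10% and none was higher, where 0.842% of all probe sets passed in limma, 0.238% lower and 0.604% higher. Signals of the 3 RA arrays lay wholly below those of the 3 DMSO arrays for 3 genes (*ptgdsb.1*, *ptgdsb.2* and *ptges3b*), as for 8.28% of all probe sets, and wholly above them for 1 (*ptgs2a*), as for 6.98% (either way, 4 genes and 15.3% of all probe sets). The groups overlapped for the remaining 4. The log2 fold changes ran from -2.59 to 0.74 with a median of -0.35, against a median of -0.0049 over all probe sets tested. The gene past the threshold was *ptgdsb.1*. It did not pass when the RA array of clutch 3 or any 1 whole clutch was left out, or with the clutch as a block in the fit, and the number of the 8 genes past the threshold was then 0. Over all probe sets, 37 passed as lower in the main fit and 9 with the block. Leaving out that RA array gave 12, and leaving out clutch 1, 3 or 4 gave 10, 2 and 0. With the block, the limma adjusted p of *ptgdsb.1* was 0.112.

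**Figure D1:**
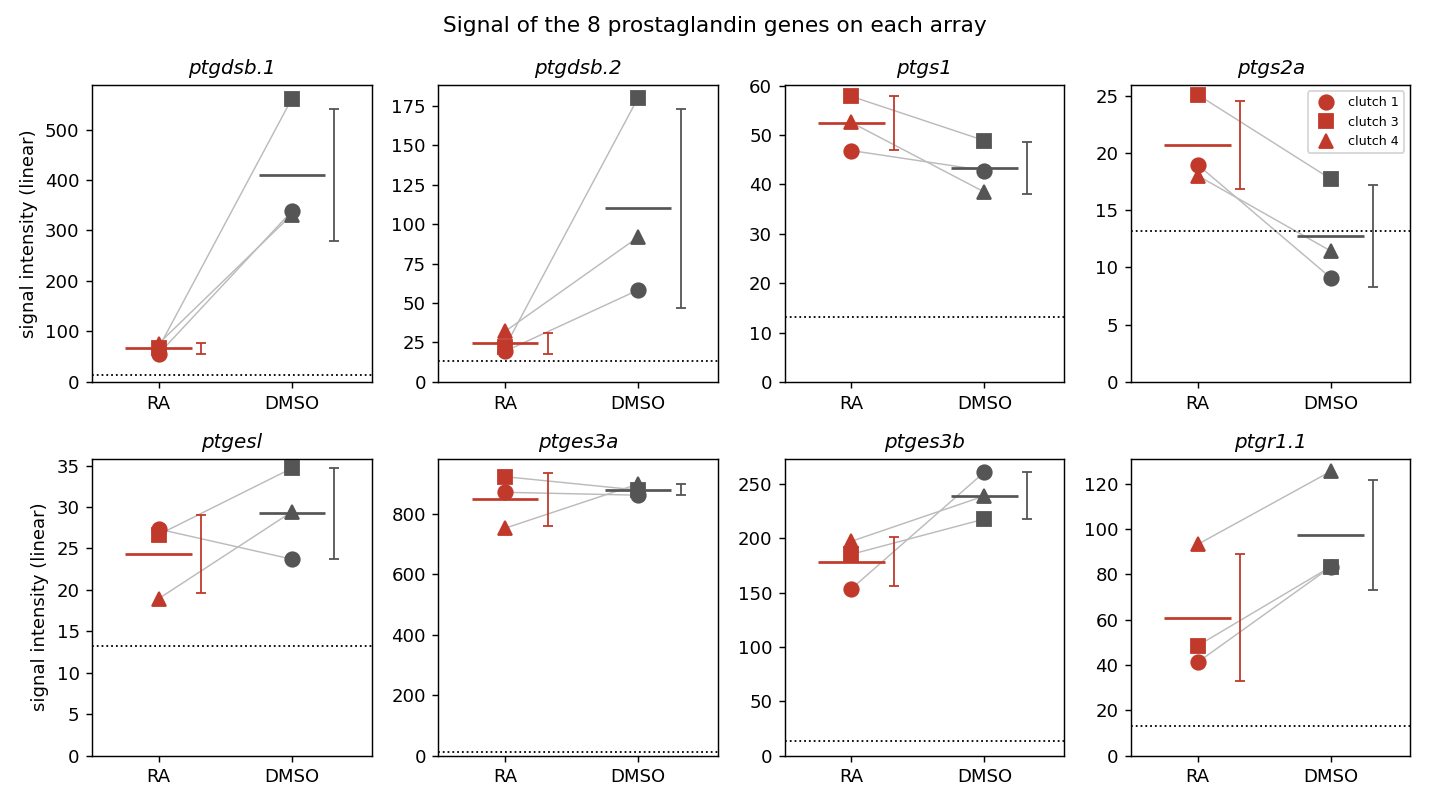
Linear signal intensity (vertical axis) of the 8 prostaglandin genes on the 3 RA arrays (left, red) and 3 DMSO arrays (right, grey), 1 panel per gene with its own scale. Symbols mark the clutch, grey lines join arrays of a clutch, horizontal bars are means, error bars are SD (n = 3) and the dotted line is the background of 13.2. For *ptgdsb.1* the RA arrays sit between 55.6 and 75.9 and the DMSO arrays between 331 and 561.

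The prostaglandin D synthase gene *ptgdsb.1* gave the largest difference of the 8. Its signal was 55.6, 67.7 and 75.9 in the RA pools (clutches 1, 3 and 4, in that order throughout), against 338, 561 and 331 in the matching DMSO pools. The RA arrays were close to each other and well above background, while among the DMSO arrays clutch 3 stood above the other two. The means were 66.4 ± 10.2 in RA-treated eyes and 410.1 ± 131 in DMSO eyes (SD, n = 3 pools each), a 6.04-fold lower signal with RA (log2 fold change -2.59, SE 0.27). Within clutches 1, 3 and 4 the log2 ratios were -2.61, -3.05 and -2.13, so the RA pool was the lower in each, with an SD of 0.46 between clutches. Since whole eyes were pooled, fewer cells that express a gene and less RNA per cell cannot be told apart here.

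The gene *ptgdsb.2* is the next gene to *ptgdsb.1* in the RefSeq gene table and encodes a further lipocalin-type prostaglandin D synthase. Its probe set gave 19.4, 22.1 and 31.998 in the RA pools, against 58.3, 180.3 and 91.8 in the DMSO pools. All 6 arrays were above background, the groups did not overlap, and the DMSO array of clutch 3 was again the highest. The means were 24.5 ± 6.64 in RA-treated eyes and 110.1 ± 63.0 in DMSO eyes (SD, n = 3), with a log2 fold change of -2.05 and a wider SE of 0.44. The log2 ratios of -1.59, -3.03 and -1.52 in clutches 1, 3 and 4 had the same sign. This gene did not pass 10% FDR.

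A further probe set is annotated with both names, *ptgdsb.2* and *ptgdsb.1*, and so belongs to neither gene alone. It read 29.6, 32.8 and 36.0 in the RA pools, against 166, 298 and 164 in the DMSO pools. Its log2 fold change of -2.62 (SE 0.28) lay close to that of *ptgdsb.1*, and its clutch 3 ratio (-3.18) was likewise the steepest of the 3 (-2.48 in clutch 1 and -2.19 in clutch 4). How far each *ptgdsb* probe set detects the RNA of the neighbouring copy was not tested, so the 3 readings are not counted as independent.

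The difference between *ptgdsb.1* and the 6 genes outside the *ptgds* family was wide, while *ptgdsb.2* lay much closer to it. The log2 fold change of *ptgdsb.1* lay 2.32 below the median of the other 7 genes, -0.27. Within each clutch, its log2 ratio was also set against the median log2 ratio of the other 7 genes in that same clutch. These differences were -2.62, -2.82 and -1.85 in clutches 1, 3 and 4. The nearest of the 7 genes by log2 fold change was *ptgdsb.2*, at a distance of -0.55 (*ptgdsb.1* minus *ptgdsb.2*). Of the 6 genes outside the *ptgds* family the nearest was *ptgr1.1*, at -1.85, and none of these 6 had a log2 fold change beyond -0.74 or 0.74.

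**Figure D2:**
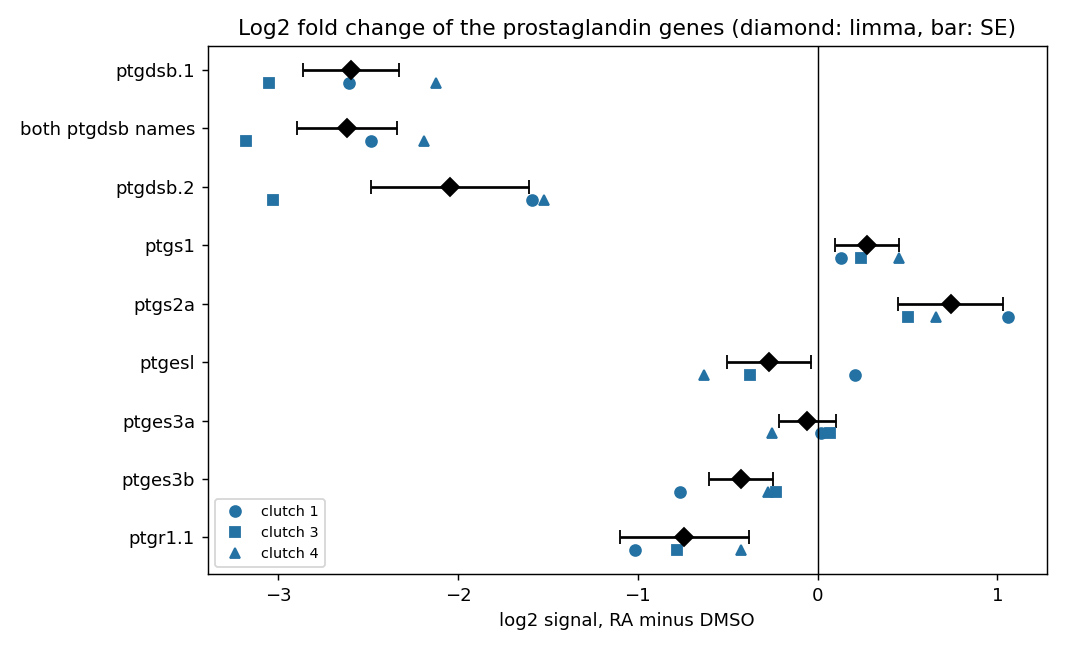
Log2 signal difference, RA minus DMSO (horizontal axis), for the 8 genes and for the probe set that carries both *ptgdsb* names. Black diamonds are limma estimates with bars of 1 SE, and blue symbols below them are the ratios within clutches 1, 3 and 4. The *ptgdsb* rows lie between -2.05 and -2.62, and the other 6 genes between -0.74 and 0.74.

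The cyclooxygenase genes, which act before the D synthases, showed small differences in the opposite direction. The gene *ptgs1*, for the cyclooxygenase that in mammals is made at a steady level in many tissues, read 46.8, 57.8 and 52.5 in the RA pools, against 42.8, 48.9 and 38.4 in the DMSO pools. The RA value was the higher in each clutch but the groups overlapped, with means of 52.4 ± 5.49 in RA-treated eyes and 43.4 ± 5.23 in DMSO eyes (SD, n = 3). Its log2 fold change was 0.27 (SE 0.18) and did not pass.

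The gene *ptgs2a* encodes a cyclooxygenase of the inducible type, which in mammals responds to growth factors and inflammation. It read 19.0, 25.1 and 18.0 in the RA pools, against 9.10, 17.7 and 11.4 in the DMSO pools. All 3 RA arrays were above background, whereas 1 of the 3 DMSO arrays was, so this comparison sits at the lower edge of what the array measures. The groups did not overlap, with means of 20.7 ± 3.84 in RA-treated eyes and 12.8 ± 4.46 in DMSO eyes (SD, n = 3). The log2 fold change was 0.74 (SE 0.29) and did not pass, and it was 0.36 when 16 was added to every signal, a step that damps differences near background.

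Genes with a prostaglandin E synthase name came next. The gene *ptgesl* is listed as *ptges2* among its synonyms, and the mammalian gene of that name encodes a membrane-associated prostaglandin E synthase. Its signal was 27.3, 26.7 and 19.0 in the RA pools, and 23.7, 34.7 and 29.4 in the DMSO pools. The groups overlapped, clutch 1 was higher with RA and clutches 3 and 4 were lower, and the log2 fold change was -0.27 (SE 0.23). It was -0.10 without the RA array of clutch 4, -0.14 without the DMSO array of clutch 3 and -0.41 without the DMSO array of clutch 1.

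The genes *ptges3a* and *ptges3b* encode copies of p23, a co-chaperone of Hsp90 also described as the cytosolic prostaglandin E synthase. For *ptges3a* the signals were 872, 923 and 753 in the RA pools, and 862, 879 and 899 in the DMSO pools. The RA values spanned the DMSO values on both sides, and the means of 849 ± 87.5 in RA-treated eyes and 880.2 ± 18.5 in DMSO eyes (SD, n = 3) differed by less than the spread between RA pools. Its log2 fold change was -0.06 (SE 0.16).

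For *ptges3b* the signals were 153, 185 and 197 in the RA pools, and 261, 218 and 239 in the DMSO pools. Every RA array was below every DMSO array, although the step was small next to that of the *ptgdsb* genes. The means were 179 ± 22.6 in RA-treated eyes and 239 ± 21.6 in DMSO eyes (SD, n = 3), with a log2 fold change of -0.43 (SE 0.18) that did not pass.

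The gene *ptgr1.1* encodes a prostaglandin reductase, an enzyme type that inactivates oxidized prostaglandins and leukotriene B4 and gives it the older symbol *ltb4dh*. It read 41.1, 48.4 and 93.1 in the RA pools, against 83.2, 83.3 and 125 in the DMSO pools. Each RA pool was below the DMSO pool of its own clutch, but clutch 4 was high in both treatments and the groups overlapped. The log2 fold change was -0.74 (SE 0.36) and did not pass. It was -1.10 without the RA array of clutch 4 and -0.51 without the RA array of clutch 1.

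The rest of the eicosanoid pathway was compared in the same fit. Of 25 further genes measured (phospholipases and related genes, other terminal synthases and reductases, transport, the lipoxygenase and leukotriene branch and arachidonic acid supply), limma called none higher and none lower past 10% FDR, and 3 had an unadjusted p under 0.05 (*ptgis* and *fads2* higher, *gstm.1* lower), where 8.76% of all probe sets did. Their median log2 fold change was 0.15, against -0.0049 over all probe sets, and 7 of the 25 lay at background on all arrays. None of the listed receptors for other prostanoids was among the genes measured.

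The genes named next were picked out after their values were seen. The prostacyclin synthase gene *ptgis* read 23.9, 35.3 and 38.5 in the RA pools, against 11.6, 20.1 and 12.8 in the DMSO pools. The groups did not overlap, although 2 of the 3 DMSO arrays were at background, and the log2 fold change was 1.15 (SE 0.29, adjusted p = 0.28 from limma). It passed in 1 of the alternatives, with only probe sets above background on all arrays of a group tested (limma adjusted p = 0.089). The gene entered that filter through its RA arrays alone, where it is high, so this pass gives no support. The summed signal of 5 measured markers of vascular endothelium, a known source of prostacyclin, was also higher without overlap, at 153 to 185 in RA-treated eyes and 103 to 131 in DMSO eyes, with 0 of 5 past the threshold in limma (3 with an unadjusted p under 0.05, *kdrl* and *plvapb* higher and *tek* lower) and *tie1* at background on all arrays. Over all probe sets, 8.76% had an unadjusted p under 0.05 in limma. The endothelial markers differed in direction: *kdrl*, *plvapb* and *tie1* were higher with RA in each clutch. Lower in each clutch were *tek* and *flt4* (log2 ratios of *flt4* -0.48, -0.07 and -0.08). Of these, *tek* was above background on 1 DMSO array and on no RA array, and the groups overlapped for *flt4*. The part of vascular endothelium in the *ptgis* values was not tested. The gene *fads2*, for a fatty acid desaturase on the way to arachidonic acid, read 111, 103 and 113 in the RA pools, against 61.4, 69.4 and 68.7 in the DMSO pools, with a log2 fold change of 0.72 (SE 0.15, limma adjusted p = 0.19). It passed with 16 added to the signal (adjusted p = 0.039), with a floor at background (0.075), with the background filter (0.067), with array weights (0.051) and at 20% FDR. It did not pass with the clutch as a block (limma adjusted p = 0.35), median centring, quantile normalization, an intensity trend or averaged probe sets. Nor did it pass when any array or clutch was left out.

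At the level of single steps, none of the 8 measured genes in the phospholipase list had an unadjusted p under 0.05, where 8.76% of all probe sets did. The list also holds *plaa*, for a phospholipase A2-activating protein, and the monoacylglycerol lipase gene *mgll*, which are not phospholipases. Of the 8 genes, 3, the cytosolic phospholipase A2 gene *pla2g4aa* among them, were at background on all 6 arrays. The 3 above background on every array, *pla2g6*, *pla2g15* and *plaa*, had log2 fold changes of -0.09, 0.43 and -0.23 with overlapping groups. The glutathione transferase gene *gstm.1*, of a family with members that isomerize prostaglandin H2 in mammals, gave 176 ± 23.1 in RA-treated eyes and 264 ± 25.3 in DMSO eyes (SD, n = 3; log2 fold change -0.58, limma adjusted p = 0.40). The thromboxane synthase gene *tbxas1* gave 52.1 ± 2.77 in RA-treated eyes and 44.3 ± 2.05 in DMSO eyes (log2 fold change 0.24, limma adjusted p = 0.77). Of the 5 genes of the lipoxygenase and leukotriene branch, 3 lay at background on all arrays, the 5-lipoxygenase gene *alox5b.3* and its partner *alox5ap* among them.

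**Figure D3:**
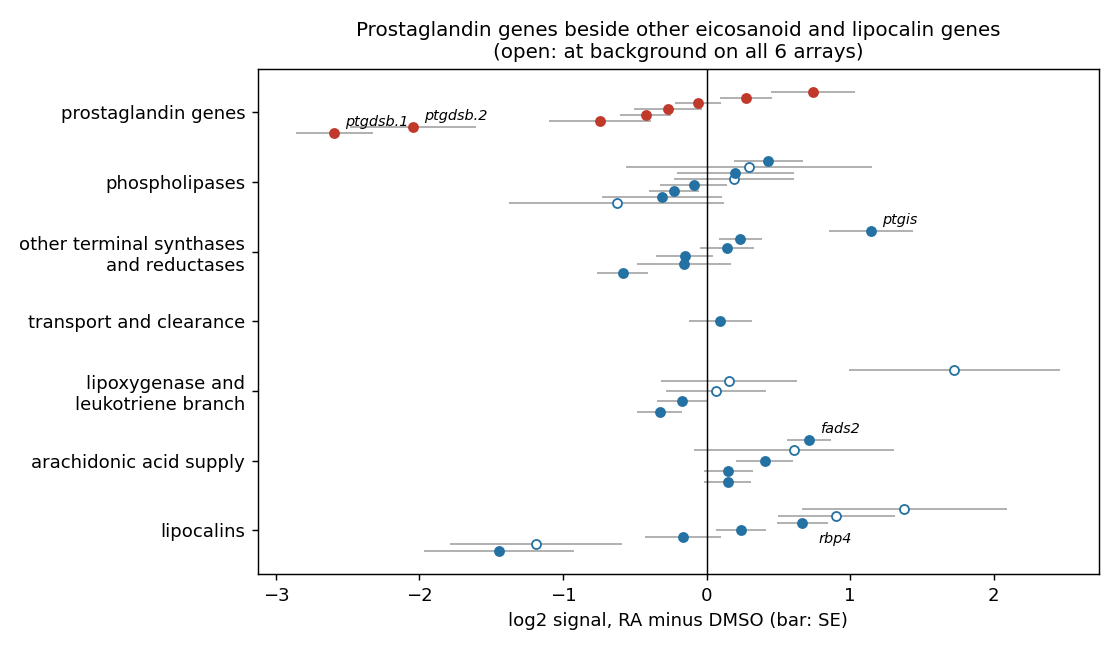
Log2 signal difference, RA minus DMSO (horizontal axis, bars of 1 SE), for the 8 prostaglandin genes (red) and for 25 further eicosanoid genes and 7 further lipocalin genes (blue), grouped by role. Open circles were at background on all 6 arrays. The *ptgdsb* genes, at -2.59 and -2.05, lie to the left of all other genes shown.

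Since *ptgdsb.1* belongs to the lipocalins, small secreted carriers of lipophilic molecules, the other lipocalin genes were set beside it. Of 7 measured, limma called none higher and none lower past 10% FDR. An unadjusted p under 0.05 was found for 2, *rbp4* higher and *ambp*, above background on 1 array, lower, where 8.76% of all probe sets had one. Their median log2 fold change was 0.24, and 3 lay at background on all arrays. The retinol carrier gene *rbp4*, named after its values were seen, read 1661, 1787 and 1604 in the RA pools, against 1025, 1248 and 933 in the DMSO pools. Its RA arrays were all the higher, with a log2 fold change of 0.67 (SE 0.18, limma adjusted p = 0.31). It passed with 16 added to the signal (adjusted p = 0.098) and with an intensity trend (0.038), and under none of the other alternatives. The carrier gene *apodb*, an apolipoprotein D gene, gave 105 ± 24.2 in RA-treated eyes and 117 ± 27.8 in DMSO eyes (SD, n = 3), with overlapping groups (log2 fold change -0.16, limma adjusted p = 0.94).

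Of the 5 annotated genes on each side of *ptgdsb.1*, 2 were measured. One is *ptgdsb.2*. The other, the complement gene *c8g*, itself a lipocalin, was at or under background on all 6 arrays, so no fold is given.

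The profile of *ptgdsb.1* over the 6 arrays was compared with those of 7772 other single-symbol probe sets that were above background on all arrays of at least 1 group. The 5 genes with the highest Pearson correlation of log2 signals were *asip2b*, *vil1*, *hgd*, *tsr1* and *inhbaa* (r = 0.98 to 0.99 over 6 arrays, which share treatments and clutches). They were lower with RA in every clutch. The actin-binding villin gene *vil1* read 37.1, 34.9 and 34.4 in the RA pools, against 85.7, 105 and 74.7 in the DMSO pools, and the activin subunit gene *inhbaa* read 22.02, 27.3 and 24.99 in the RA pools, against 60.2, 75.8 and 47.4 in the DMSO pools. The ribosome assembly gene *tsr1* read 28.3, 30.7 and 31.7 in the RA pools, against 44.6, 46.9 and 47.1 in the DMSO pools. The DMSO array of clutch 3 was the highest of the 6 for *asip2b*, *vil1*, *hgd* and *inhbaa*, and that of clutch 4 for *tsr1*. These genes were picked for their likeness to *ptgdsb.1*, so a shared pattern is fixed by the choice. The agouti gene *asip2b* was at background on all 3 RA arrays and the tyrosine breakdown gene *hgd* on 2 of them, with DMSO signals of 21.6 to 28.8 for *asip2b* and 82.0 to 91.4 for *hgd*.

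Markers of the eye were well above background. All 11 measured cone genes and all 5 lens genes exceeded it on every array, as did 4 of 5 genes of pigment epithelium and pigment cells. So did all 11 Müller glia genes, 7 of 9 periocular mesenchyme genes, 5 of 10 leukocyte genes and 7 of 8 skin genes. Of the glia genes, 5 had an unadjusted p under 0.05 in limma (*gfap*, *vim* and *apoeb* higher, *rlbp1a* and *cahz* lower). In the periocular, leukocyte and skin lists 1, 2 and 0 genes had one, each higher. The leukocyte gene *mpx* read 134, 162 and 231 in the RA pools, against 102, 946 and 106 in the DMSO pools. In the marker lists, 3 genes passed 10% FDR in limma, all higher with RA: the lens crystallin gene *cryaa* (log2 fold change 1.21, adjusted p = 0.082) and the liver genes *cp* (1.49, adjusted p = 0.051) and *fgg* (at least 8.44-fold higher on average, with the DMSO arrays set to background, adjusted p = 0.074). The RA pools of clutches 1, 3 and 4 read 32.8, 213 and 198 for *fgg*, so this bound does not hold for each pool. In the limma fit blocked on clutch none of these 3 genes passed (adjusted p = 0.16 to 0.28). Over all probe sets, 0.604% passed as higher and 0.238% as lower, and 8.76% had an unadjusted p under 0.05 in limma. The liver list did not move together. Of 10 measured, *fgg* and *cp* were higher and *hp* and *ambp* lower with an unadjusted p under 0.05 in limma. Only 1 array was above background for *ambp*. The median log2 fold change of the list was -0.18, and the fibrinogen genes *fga* and *fgb* were at background on all 6 arrays. Of the cells known to make prostaglandin D synthase in the mammalian eye, the pigment list had a median log2 fold change of -0.02 with 0 of 5 genes past the threshold in limma (0 with an unadjusted p under 0.05), and its summed signal overlapped between RA-treated eyes (5199 to 5801) and DMSO eyes (4846 to 6850). The summed signal of the blood list, most of it from the globin genes *hbae3* and *hbbe2*, was lower without overlap, at 1528 to 1927 in RA-treated eyes and 2058 to 3005 in DMSO eyes, with 0 of 7 genes past the threshold (1, *hbae3*, lower with an unadjusted p under 0.05) and 3 of 7, *hbbe3* and the red cell regulators *gata1a* and *tal1*, at background on all arrays. Members of this list differed in direction: the red cell anion exchanger gene *slc4a1a* was higher with RA in each clutch (log2 ratios 0.44, 0.16 and 0.13), and *alas2* was higher in 1 clutch. As a measure of RNA integrity, the ratio of 3' to 5' signal of *acta1*, an actin gene, did not overlap, at 5.30 to 11.7 in RA-treated eyes and 12.0 to 64.5 in DMSO eyes, while that of *gapdh* overlapped, at 1.32 to 1.75 in RA-treated eyes and 1.48 to 2.58 in DMSO eyes. The part of pigment cells, glia, leukocytes, blood cells and RNA integrity in the results was not tested. Without the DMSO array of clutch 1, which had the ratio of 64.5, the log2 fold change of *ptgdsb.1* was -2.71. The *acta1* ratios of the remaining DMSO arrays, 20.2 and 12.0, still lay above all RA ratios, so this value cannot address RNA integrity.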

How the data were processed

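Eyes of zebrafish embryos were profiled on 6 Affymetrix arrays, 3 RA and 3 DMSO. The authors deposited linear signal intensities, each array scaled to a mean of 125 without its lowest and highest 2%. The paper's methods describe RMA, but these intensities are not on its log2 scale, and the step that made them is not given in the sources used here. They were taken to log2 without an offset.

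Of 15617 probe sets, 62 controls were left out, and 15555 were tested with limma 3.58.1 (R 4.3.3, lmFit and eBayes, two-sided, Benjamini-Hochberg, 10% FDR) in place of the study's SAM. Another 53 controls, those named for zebrafish, stayed among the probe sets tested. Gene names came from the probe annotation, where 10802 probe sets had 1 symbol, 135 several and 4680 none; a gene with several was represented by the brightest. Medians were 39.5 to 43.5, and 67.1% to 69.8% of probe sets exceeded background. An exact permutation test of 3 arrays against 3 cannot go below p = 0.1 and was not run. The script was tested on simulated data.

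The methods state that clutches were split between treatments. Deviations of same-numbered arrays from their group means correlated at 0.16, 0.42 and 0.28 in clutches 1, 3 and 4 (9791 probe sets). Arrays with different numbers were not compared, so the pairing rests on the methods and the sample numbers.

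The members and lists were chosen with earlier results of these data known. Named were all members, up to 4 genes past the threshold per list, and the 5 profiles closest to *ptgdsb.1*. No eicosanoid or lipocalin list gene passed, so those named, and the marker genes that did not pass, were chosen after their values were seen. Alternatives were the clutch as a block, median centring, quantile normalization, 16 added to the signal, a floor or filter at background, an intensity trend, array weights, other FDRs, averaging over a gene's probe sets, and leaving out arrays or clutches. Using another probe set for *ptgdsb.1*, and leaving *ptgdsb.2* out of the others, were added after the data were seen.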

Additional observations from a re-analysis of the deposited data

How the results depend on the processing

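The log2 fold change of *ptgdsb.1*, -2.59, was negative under every alternative run. It ranged from -2.96 (array weights) to -2.34 (16 added to the signal), and from -2.83 to -2.35 when 1 array or 1 clutch was left out. Several settings could not move this value: the clutch block, the intensity trend, other FDRs and averaging of probe sets. Nor could the floor or filter, since all its arrays were above background. The distance of *ptgdsb.1* to the median of the other 7 genes, -2.32, ranged from -2.74 to -2.15 when arrays or clutches were left out. The sign of *ptges3a* alone among the 8 genes changed, to 0.03 without the RA array of clutch 4 and 0.04 without clutch 4. Counts depended on the setting. With the clutch as a block (paired fit), 36 probe sets were higher and 9 lower, against 94 and 37, and 0 of the 8 genes passed; of the marker genes that passed, *cryaa*, *fgg* and *cp* did not pass with the block (adjusted p = 0.18, 0.28 and 0.16). Probe sets higher and lower numbered 153 and 79 with 16 added, 178 and 124 with the background filter, 172 and 102 with an intensity trend, 341 and 252 with array weights, 51 and 22 at 5% FDR and 176 and 115 at 20% FDR. With the filter, the trend, the weights or 20% FDR, 2 of the 8 genes passed as lower, *ptgdsb.1* and *ptgdsb.2*, and *ptgdsb.2* was then the 1 gene next to *ptgdsb.1* to pass. Of the 25 eicosanoid genes, 1 passed as higher with 16 added, with a floor at background, with weights and at 20% FDR, and 2 with the filter (*fads2* each time, and *ptgis*). The filter admitted *ptgis* through its RA arrays alone, where it is high. Of the 7 lipocalin genes, 1 passed as higher with 16 added and with the trend (*rbp4*) and with weights (*apoda.2*), where 1 also passed as lower (*ambp*). With arrays or clutches left out, 16 to 81 probe sets were higher and 0 to 36 lower, 0 to 1 of the 8 genes passed as lower, and 0 to 1 lipocalin genes as higher (*apoda.2*, at background on all arrays, when clutch 1 or its DMSO array was dropped). The causes were not tested. None of the 8 genes has a second probe set under a single symbol, so using each other probe set of these genes gave no value. Averaging a gene's probe sets was run and left the 8 genes' log2 fold changes as they were. The signal over background limits *ptgs2a*, *ptgis*, *pla2g12a*, *mgll* and *mboat7*, each above background on some arrays only. It also limits the 7 eicosanoid genes at background on all arrays.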
